A study of Mus musculus with 8 samples.

Results

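Mitochondrial tRNA fragments are sperm small RNAs whose sequence lies in 1 of the 22 tRNAs coded by the mitochondrial genome. They were taken as every distinct sequence whose annotated tRNA names were all mitochondrial, which gave 8697 of 5724730 distinct fragments over 8 samples, beside 23520 fragments with nuclear tRNA names. No fragment carried a name of both kinds (0 of them). Mice of the activated group were Agrp Cre/+ and mice of the control group Agrp +/+, with 4 samples in each. At 8 weeks of age both genotypes received AAV hSYN-DIO-hM3D(Gq)-mCherry in the arcuate nucleus, a virus whose activating receptor is made only in cells with Cre, here the hunger-promoting AgRP neurons. After 3 weeks food was removed for 1 h, and both then received the receptor's ligand CNO at 1 mg/kg in the absence of food. Mature sperm was collected from the caudae epididymides 4 h later. Libraries were made from 100 ng of RNA and read as single reads of 50 nt. The comparison asks whether fragments of mitochondrial tRNAs in sperm differ after AgRP neurons are activated. The groups differ in genotype, so activation and the Cre allele itself cannot be told apart.

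Mitochondria carry their own small genome and make their own tRNAs, which bring amino acids to the mitochondrial ribosome. The long transcripts of both strands are cut on either side of each tRNA, and an enzyme then adds the bases CCA to the 3′ end, where the amino acid is loaded. Sperm keep mitochondria in the midpiece, and cut tRNAs are a large class of their small RNA. Because CCA is added after transcription, the tail of a fragment need not match the genome.

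The sequences that carry most of the reads, or stand for the isotypes described below, were read from the deposited fragments. Capitals mark the bases of the anticodon that the fragment holds and, at the 3′ end, bases that follow the last base of the gene.
His-GTG CCA end 40 nt: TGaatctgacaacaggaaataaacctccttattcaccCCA
His-GTG no suffix 39 nt: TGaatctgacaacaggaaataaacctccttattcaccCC
His-GTG no suffix 38 nt: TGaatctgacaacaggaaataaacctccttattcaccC
His-GTG 3′ end 37 nt: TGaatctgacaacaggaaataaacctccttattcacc
Thr-TGT CCA end 41 nt: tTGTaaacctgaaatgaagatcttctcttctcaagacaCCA
Lys-TTT CCA end 44 nt: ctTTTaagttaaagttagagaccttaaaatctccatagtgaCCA
Met-CAT 5′ end 45 nt: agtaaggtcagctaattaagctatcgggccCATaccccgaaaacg
Met-CAT 5′ end 42 nt: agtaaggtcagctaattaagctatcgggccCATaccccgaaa
Ser-GCT 5′ end 41 nt: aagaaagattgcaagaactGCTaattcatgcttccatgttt
Arg-TCG 5′ end 43 nt: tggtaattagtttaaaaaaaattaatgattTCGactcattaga
Ser-TGA 5′ end 28 nt: gagaaagacatataggatatgagattgg
Asp-GTC 5′ end 41 nt: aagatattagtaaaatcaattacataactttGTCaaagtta
Ile-GAT no suffix 38 nt: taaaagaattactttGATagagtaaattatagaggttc
Glu-TTC no suffix 36 nt: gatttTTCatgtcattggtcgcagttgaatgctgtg
The His-GTG fragments came from mt-Th, which lies on the plus strand at chrM:11546-11612 of mm10, and began at base 31 of 67, the middle base of the anticodon. Thr-TGT (mt-Tt, chrM:15289-15355, plus strand) began at base 30, the base directly before its anticodon. Met-CAT (mt-Tm, chrM:3845-3913, plus strand) showed the other end of the molecule, from base 1 to base 45 or 42 of 69, past the anticodon. Lys-TTT (mt-Tk, chrM:7700-7764), Ser-GCT (mt-Ts2, chrM:11613-11671), Arg-TCG (mt-Tr, chrM:9808-9875), Ile-GAT (mt-Ti, chrM:3706-3774) and Asp-GTC (mt-Td, chrM:6942-7011) were also on the plus strand. Ser-TGA (mt-Ts1, chrM:6870-6938) and Glu-TTC (mt-Te, chrM:14071-14139) were on the minus strand. Of the 8697 fragments, 8608 (99.0%) lay without a mismatch in the gene of their own isotype once CCA was added to it, and 0 lay in more than 1 of the 22 genes. Copies of mitochondrial sequence in the nuclear genome were not searched here.

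Total reads were 14903635, 17489698, 14757501 and 9409491 in activated samples 1 to 4 and 12421068, 23123740, 9297271 and 14348060 in control samples 1 to 4. Levels are given as reads per 1000000 reads of the sample (RPM), where 1 read is worth between 0.0432 and 0.108 RPM. Such levels are shares of a library, so that a class can be higher in RPM because another is lower. The libraries fell into 2 sets on the first principal component of 10324 fragments with no mitochondrial annotation (43.9% of the variance). Set 1 held activated samples 1 and 4 and control samples 2 and 4, and set 2 held activated samples 2 and 3 and control samples 1 and 3, so that each group had 2 libraries in each set. Fragments of mitochondrial rRNA moved with the sets, at 20546, 83464, 76758 and 17964 RPM in activated samples and 71142, 20580.5, 75123 and 22437 RPM in control samples, with no overlap between set 1 (at most 22437) and set 2 (at least 71142). The ratio of activated to control is therefore also given within each set, as the mean of 2 samples over the mean of 2.

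Markers of the labelled cells were present in each sample. All 10 testis and sperm miRNAs on the list were found in every sample and made up 44135, 32000.3, 26066 and 43162 RPM in activated and 27827, 38296, 21236 and 32273 RPM in control samples, led by miR-34b. Control sample 4 stood apart in miRNAs of other tissues. Its 5 muscle and vessel miRNAs, led by miR-143, made up 36472 RPM, where the other control samples had 255, 445 and 307 and the activated samples 524, 258, 180.2 and 374. The 7 epithelial miRNAs, led by miR-200c, made up 3476, 1166, 1085 and 1196 RPM in activated samples and 1364, 1825, 2733 and 19420.2 RPM in control samples. The 4 erythrocyte miRNAs, led by miR-451a, made up 298, 83.5, 113 and 84.1 RPM and 235, 532, 976 and 659 RPM, and 3 of them were found in every sample. The 4 leukocyte miRNAs, led by miR-142a, made up 862, 398, 655 and 581 RPM and 343, 454, 295 and 553 RPM. No marker on these lists was at 0 over all samples. Their part in the results was not tested, and values without control sample 4 are given where they change a direction or a test's outcome. In whole-sperm RNA, fewer cells of a type and less RNA per cell cannot be told apart.

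Mitochondrial tRNA fragments took overlapping shares of all reads in the groups, while nuclear tRNA fragments were lower in mean in activated sperm, and neither difference passed its test. Mitochondrial tRNA made up 20006, 31099.7, 32213 and 22768 RPM in activated samples 1 to 4 and 26945, 22458, 26407 and 16126 RPM in control samples 1 to 4. The highest values were those of activated samples 2 and 3 and the lowest that of control sample 4, and the groups overlapped. The means were 26522 ± 6053 and 22984 ± 4990.5 RPM (SD, n = 4 each), a ratio of 1.15 with an exact two-sided permutation p = 0.400. Within library sets 1 and 2 the ratio was 1.11 and 1.19. Set 2 libraries held more of these reads than set 1 libraries in both groups, at 26407 to 32213 against 16126 to 22768 RPM.

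Nuclear tRNA fragments made up 101087, 93566, 80456 and 91526 RPM in activated and 131379, 116265, 153522 and 80336 RPM in control samples. Control samples 1, 2 and 3 lay above every activated sample and control sample 4 lay below them all. The ratio of the means was 0.761 (exact permutation p = 0.143, n = 4 each), and 0.980 and 0.611 within the sets. Without control sample 4 it was 0.685, and the groups then no longer overlapped, which the choice of this sample fixes. Without each other sample in turn the exact permutation p was 0.200 to 0.286. Per read of nuclear tRNA, mitochondrial tRNA gave 0.198, 0.332, 0.400 and 0.249 reads in activated samples and 0.205, 0.193, 0.172 and 0.201 reads in control samples. Activated samples 2, 3 and 4 were above every control sample, and activated sample 1 lay within the control range. The mean ratio of 0.295 ± 0.0896 against 0.193 ± 0.0147 (SD, n = 4 each; exact permutation p = 0.0857) was 1.53 times that of control, with 1.13 within set 1 and 1.94 within set 2. Without activated sample 1, the only one within the control range, it was 1.70 times, and without each other sample in turn the exact permutation p was 0.0857 to 0.229. Over fragments of at least 18 nt, where every activated sample was above every control sample, it was 1.53 times (exact permutation p = 0.0286). As a share of all tRNA reads, mitochondrial tRNA took 16.5, 24.9, 28.6 and 19.9% in activated and 17.0, 16.2, 14.7 and 16.7% in control samples. With 4 samples a group, the smallest p this test can give is 0.0286, and the smallest Benjamini-Hochberg adjusted p over the 7 totals tested was 0.333.

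**Figure D1:**
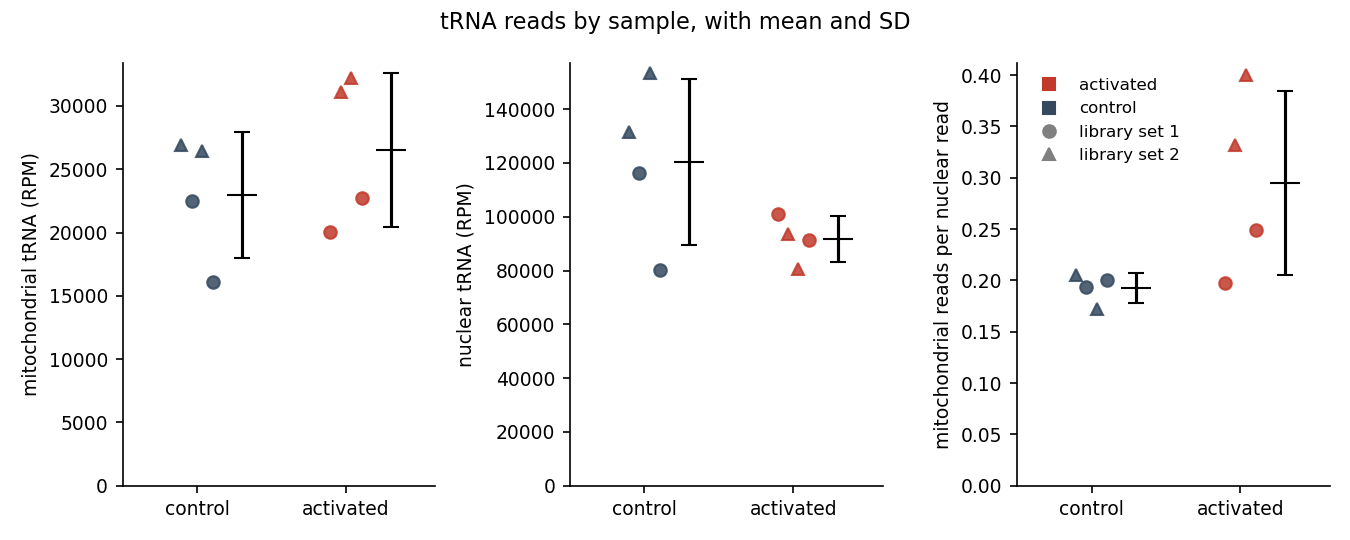
Reads of mitochondrial tRNA and nuclear tRNA in RPM, and mitochondrial reads per nuclear read, in each of the 4 control and 4 activated samples, with the mean and SD beside the points and the marker giving the library set. The ratio of activated samples 2 and 3, both of set 2, stands highest, at 0.332 and 0.400.

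Few isotypes gave nearly all of the reads. His-GTG, Met-CAT and Thr-TGT together took 91.6, 91.2, 91.7 and 93.2% of mitochondrial tRNA reads in activated and 93.1, 92.0, 90.2 and 92.2% in control samples, and the 8 most abundant isotypes took at least 96.0% in each. The tRNA for histidine led in every sample, with 10613, 15547, 19404 and 13369 RPM in activated and 18353, 11583, 18142 and 10323 RPM in control samples. The groups overlapped, and the ratio of the means was 1.01 (1.09 and 0.958 within the sets). It was 0.919 without control sample 4 and ranged over 0.902 to 1.104 without each sample in turn. Control samples 1 and 3 and activated sample 3 were highest, all of set 2.

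Met-CAT, which both starts and extends mitochondrial proteins, gave 6695, 9344, 6589 and 6371 RPM in activated and 4558, 7988, 2638 and 3705 RPM in control samples. Activated samples lay close together apart from sample 2, and control sample 2 lay among them while the other control samples were lower. The ratio of the means was 1.54, and 1.12 within set 1 against 2.21 within set 2. Thr-TGT followed the library sets, with 1023, 3458, 3532 and 1482 RPM in activated and 2171, 1092, 3043 and 836 RPM in control samples, every set 2 library being above every set 1 library. Its ratio was 1.33 over all samples and 1.30 and 1.34 within the sets.

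Below these stood Ser-GCT, the serine tRNA that lacks a D arm, at 406, 358, 349 and 320.4 RPM in activated and 224, 443, 270.2 and 318 RPM in control samples. Ile-GAT gave 250.5, 488, 446 and 212 RPM and 364, 223, 388 and 138 RPM, and Ser-TGA 258, 413, 220.4 and 187 RPM and 256, 245, 327 and 132 RPM. The groups overlapped for each of them, with ratios of 1.14, 1.25 and 1.12. The ratio of Ser-GCT lay on either side of 1 by set, at 0.955 within set 1 and 1.43 within set 2, while within these sets Ile-GAT had 1.28 and 1.24 and Ser-TGA 1.18 and 1.09. The ratio of Ser-TGA was 0.976 without control sample 4 and 0.923 without activated sample 2. Lys-TTT gave 129, 355, 521 and 176 RPM in activated and 225, 132, 341 and 128 RPM in control samples (ratio 1.43, and 1.18 and 1.55 within the sets). Arg-TCG gave 104, 521, 368 and 137 RPM and 210.4, 97.5, 206 and 45.1 RPM, a ratio of 2.02 that was 1.69 within set 1 and 2.14 within set 2. Activated samples 2 and 3 were the highest for Lys-TTT and Arg-TCG. The remaining 14 isotypes had means between 4.53 RPM (Tyr-GTA) and 136 RPM (Glu-TTC). Among them the ratio was below 1 for Gly-TCC (0.759), Asn-GTT (0.689), Gln-TTG (0.920), Val-TAC (0.788) and Leu-TAA (0.702). It was also below 1 for Pro-TGG (0.959), Phe-GAA (0.738), Trp-TCA (0.707) and Tyr-GTA (0.968). Above 1 were Glu-TTC (1.02), Ala-TGC (1.25), Cys-GCA (1.12), Asp-GTC (2.25) and Leu-TAG (1.06, or 0.923 without control sample 4). Without control sample 3, Gln-TTG, Leu-TAA, Pro-TGG and Tyr-GTA stood above 1.

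**Figure D2:**
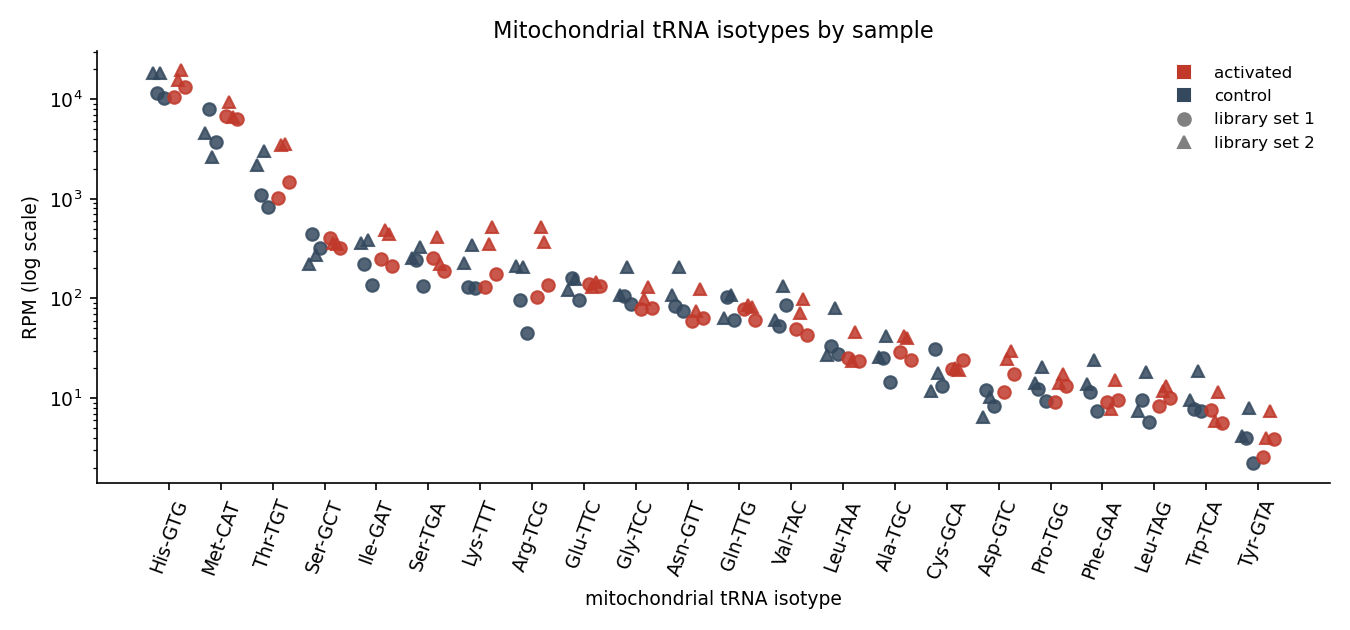
RPM on a log scale of the 22 mitochondrial tRNA isotypes, ordered by mean, in each control and activated sample, with the marker giving the library set. His-GTG, Met-CAT and Thr-TGT stand above the rest, and the points of control and activated samples overlap for the 8 leading isotypes.

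The mitochondrial strands differ in how many tRNAs they code. The 14 tRNAs read as the plus strand (heavy-strand-coded), which include His-GTG, Met-CAT and Thr-TGT, made up 25884 ± 5968 RPM in activated and 22344 ± 4837 RPM in control samples (SD, n = 4 each). The 8 light-strand-coded tRNAs (Gln, Ala, Asn, Cys, Tyr, Ser-TGA, Glu and Pro) made up 596, 784, 658 and 511 RPM in activated and 605, 666, 886 and 403 RPM in control samples, with a ratio of the means of 0.996 (1.04 and 0.967 within the sets, and 0.886 to 1.14 without each sample in turn). Their share of mitochondrial tRNA reads lay between 2.04% in activated sample 3 and 3.36% in control sample 3.

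Most of the leading isotypes were left mainly as 1 part of the molecule. Of His-GTG reads, 82.1, 84.1, 86.4 and 82.6% in activated and 89.4, 82.0, 89.3 and 82.2% in control samples began in the 7 bases of the anticodon loop, and of Thr-TGT reads 89.6, 87.7, 85.04 and 89.4% and 88.9, 90.9, 86.2 and 88.9%. Base 31 of His-GTG alone began 83.7% of its reads, and base 30 of Thr-TGT 82.2% of its reads, with samples weighted equally. The opposite held for Met-CAT, where 95.1, 97.2, 94.5 and 94.3% of reads in activated and 95.1, 95.5, 86.7 and 92.9% in control samples began at base 1. Ser-GCT, Ser-TGA and Arg-TCG also began mainly at base 1 (90.9%, 88.7% and 78.7% of their reads). Ends were less fixed than starts in these isotypes, where Met-CAT reads ended at base 45 in 47.8% and Ser-TGA reads at base 28 in 25.9%. In isotypes left as the 3′ part, Thr-TGT reads ended with the full CCA tail in 92.7%, His-GTG reads in 81.4% and Lys-TTT reads in 67.7%. Lys-TTT reads thus shared an end but no single start, their leading start taking 13.1% of reads. Ile-GAT had neither, its leading start taking 10.4% and its leading end 26.9% of reads. The deposited fragments hold 15 to 45 nt, so that a Met-CAT fragment longer than 45 nt would not be seen here.

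**Figure D3:**
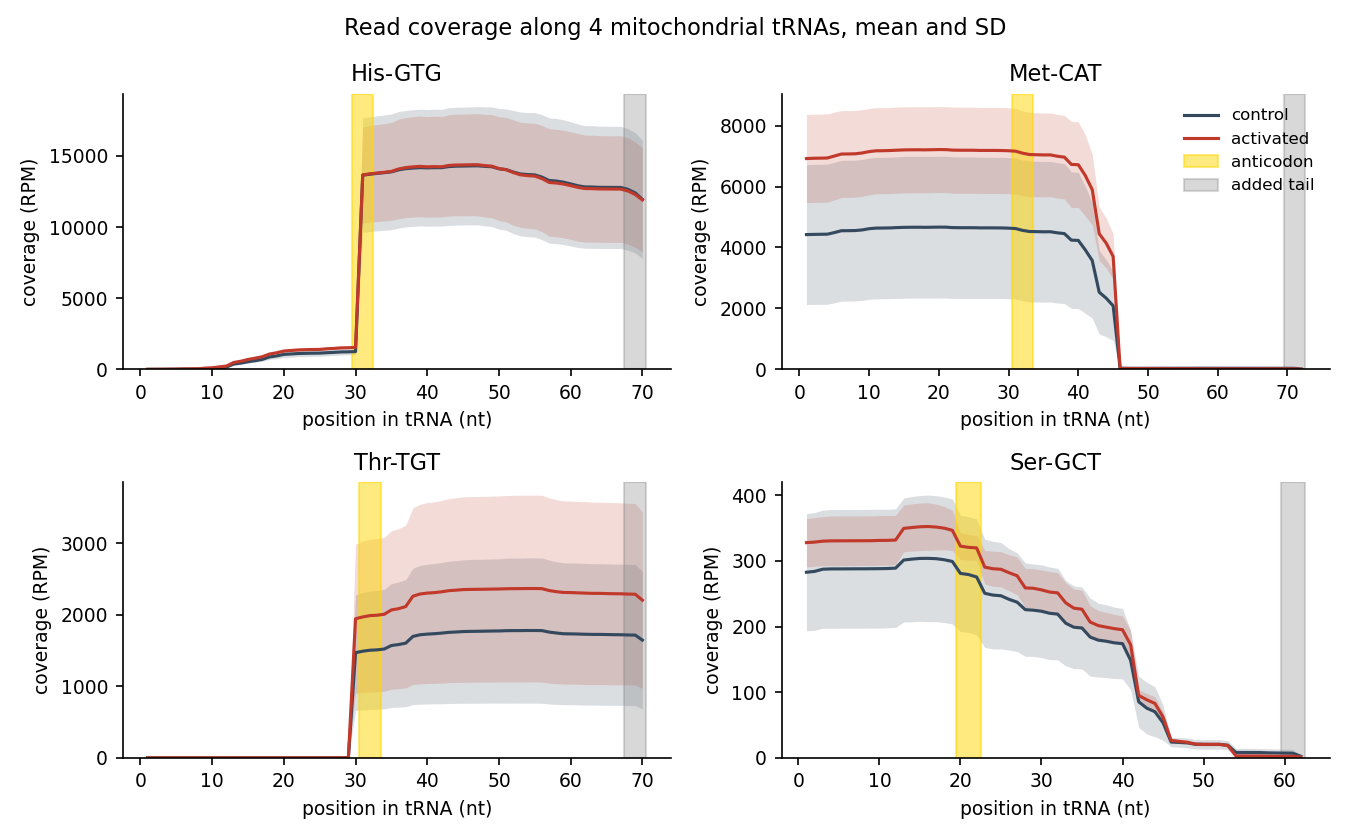
Reads covering each position of 4 mitochondrial tRNAs in RPM, counted from base 1 of the tRNA, as the mean (line) and SD (band) of 4 control and 4 activated samples. Coverage of His-GTG and Thr-TGT steps up at the anticodon or 1 base before it and runs to the added tail, with a lower level before the step in His-GTG (1247 RPM in control and 1539.6 RPM in activated samples at base 30, 13639 and 13659 RPM at base 31), and that of Met-CAT and Ser-GCT begins at base 1.

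Fragment by fragment, the 40 nt His-GTG fragment printed above took 35.8% to 55.3% of all mitochondrial tRNA reads, and lay at chrM:11576-11612 without its tail. It had 7580.3, 11149, 15303 and 9548 RPM in activated and 14275, 8072, 14602 and 7312 RPM in control samples, the highest mean RPM of the CCA end class. Its log2 fold change was -0.07 ± 0.30 (SE; adjusted p = 0.999 by edgeR). The 45 nt Met-CAT fragment, the highest of the 5′ end class (chrM:3845-3889), had 3362, 4748, 3534 and 3026 RPM in activated and 2121, 3577, 856 and 1630.5 RPM in control samples. Control sample 2 lay among the activated samples, and the log2 fold change was 0.76 ± 0.42 (SE; adjusted p = 0.869 by edgeR, ratio 1.23 within set 1 and 2.78 within set 2). The 42 nt Met-CAT fragment had a mean of 1233 RPM over all samples and a ratio of 1.39 (1.06 and 1.92 within the sets). The 41 nt Thr-TGT fragment (chrM:15318-15355) had 794, 2609, 2689.6 and 1154 RPM and 1649, 859, 2308 and 636 RPM, with the set 2 libraries above the set 1 libraries. Of the 3′ end class, whose fragments stop at the last base of the gene, the 37 nt His-GTG fragment was highest, with 85.1, 186, 105 and 131 RPM in activated and 182, 129, 114 and 94.6 RPM in control samples. Of fragments with no end suffix, the 39 nt His-GTG fragment was highest, with 212, 441, 329 and 359.5 RPM and 506, 394, 440.1 and 289 RPM. The groups overlapped for both.

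By end class, fragments from the 5′ end were higher in mean in activated sperm and the other classes were close to control, and no class passed its test. The 5′ end class made up 7138, 10374, 7123 and 6653 RPM in activated and 5029, 8450.0, 3038 and 3927 RPM in control samples. Control sample 2 was above 3 of the activated samples, and the other control samples were below all of them. The means were 7822 ± 1716 and 5111 ± 2370.3 RPM (SD, n = 4 each), a ratio of 1.53 with an exact permutation p = 0.114, and 1.11 and 2.17 within the sets. Without control sample 2, the only one to overlap the activated samples, the ratio was 1.96, and without each other sample in turn the exact permutation p was 0.114 to 0.229. The CCA end class, mostly His-GTG, made up 9254, 15830.4, 20737 and 12007 RPM in activated and 17572, 9998, 19122 and 8959 RPM in control samples, and followed the library sets in both groups. Its ratio was 1.04 (exact permutation p = 0.857, n = 4 each), and 1.12 and 0.997 within the sets. It stood below 1 without control sample 4 (0.929), without control sample 2 (0.950) and without activated sample 3 (0.889). The 3′ end class had 107, 230.1, 155 and 155 RPM and 210.1, 154, 150.5 and 112 RPM, a ratio of 1.03 (exact permutation p = 0.800, n = 4 each; 0.987 and 1.07 within the sets). Without control sample 4 this ratio was 0.944, and without activated sample 2 it was 0.889. Fragments with no end suffix had 3506, 4666, 4198 and 3952 RPM and 4134, 3856, 4096 and 3128 RPM, a ratio of 1.07 (exact permutation p = 0.429, n = 4 each; 1.07 and 1.08 within the sets). Counting only reads that match the genome, this class stood at 1.18 times control (exact permutation p = 0.0286), and the ratio of mitochondrial to nuclear tRNA at 1.84 times (exact permutation p = 0.0286). That count leaves out the leading His-GTG and Thr-TGT fragments, whose tails do not match the genome.

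Nuclear tRNA fragments had another balance of ends. Their 5′ end class took 42.4, 46.8, 43.9 and 39.5% of nuclear tRNA reads in activated and 43.1, 50.4, 50.5 and 50.9% in control samples, and their CCA end class 30.3, 27.9, 30.2 and 31.6% and 28.7, 25.7, 22.9 and 24.2%. For mitochondrial tRNA the 5′ end class took 35.7, 33.4, 22.1 and 29.2% and 18.7, 37.6, 11.5 and 24.4%, and the CCA end class 46.3, 50.9, 64.4 and 52.7% and 65.2, 44.5, 72.4 and 55.6%. Nuclear 5′ end fragments had a ratio of activated to control of 0.677 in RPM (0.794 and 0.589 within the sets), where mitochondrial 5′ end fragments had 1.53, and the difference between these ratios was not tested.

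Lengths followed the leading fragments. At 40 nt, the length of the His-GTG fragment, reads made up 11416 ± 3334 RPM in activated and 11536 ± 3894 RPM in control samples (SD, n = 4 each). At 45 nt, the length of the Met-CAT fragment, they made up 3499, 5009.6, 3758 and 3178 RPM in activated and 2254, 3749.7, 997 and 1726 RPM in control samples, a ratio of 1.77 (1.22 and 2.70 within the sets). Control sample 2 lay within the activated range there.

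**Figure D4:**
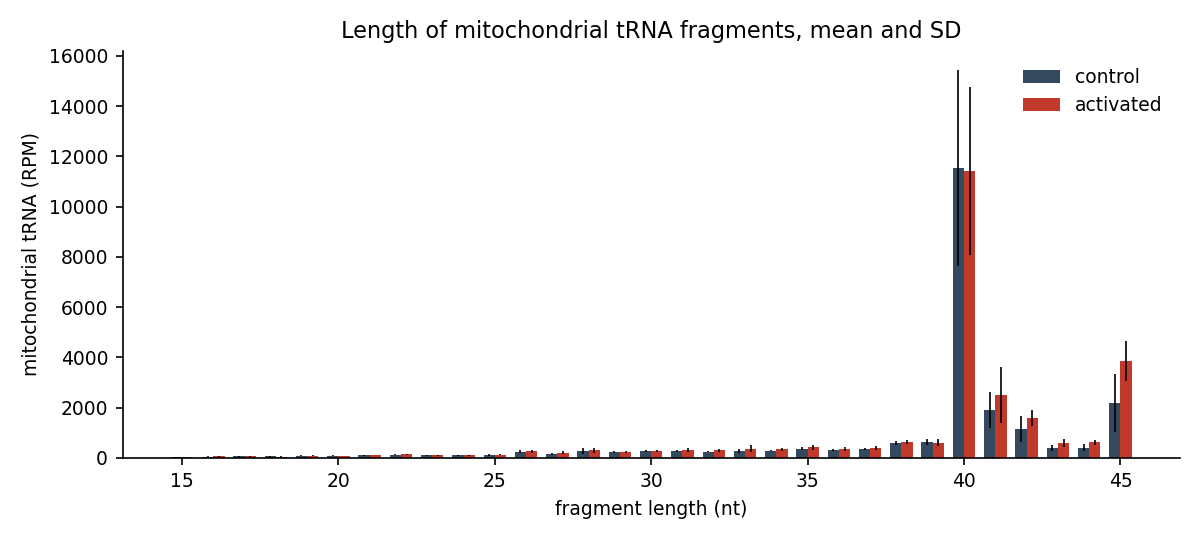
Mean RPM of mitochondrial tRNA fragments at each length in nt, with the SD of 4 samples as error bars, for control and activated samples. The bars at 40 nt, 11536 and 11416 RPM, are the highest, and those at 45 nt end the range of lengths kept.

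Among reads that reached the last base of the gene, the tail differed by isotype. For His-GTG the full CCA tail was on 94.4, 92.1, 95.9 and 93.0% in activated and 93.5, 91.5, 94.9 and 92.9% in control samples, with 3.07% and 3.71% in CC, 1.95% and 1.99% in C, and 1.11% and 1.13% without a tail (means, n = 4 each). Thr-TGT had CCA on 96.0 ± 1.12% and 95.3 ± 1.13% (SD). Other isotypes were far from this: Asn-GTT had CCA on 12.4% and 9.08% and CC on 73.6% and 71.7%, and Met-CAT, whose 3′ part was rare, CCA on 26.3% and 25.7%. Over the 22 isotypes, the activated mean was above the control mean for CCA in 16, CC in 4, C in 12 and no tail in 14. The groups were apart with activated samples higher for CCA in 2 isotypes, no tail in 2, and CC and C in 0. They were apart with activated samples lower for CC in 2 isotypes and for CCA, C and no tail in 0. Over all 88 combinations of isotype and tail, 4 were apart and higher and 2 apart and lower. The 4 states are shares of the same reads, so their counts are not independent. Differences in tails between the groups were not tested. Where the genome itself continues with C after a gene, a base counted as tail may be coded.

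Tests over whole tables of RNAs called no mitochondrial tRNA. The tables by species, and by species and length, held only fragments named as tRNA, rRNA or miRNA. They left out piRNAs, other RNAs and unannotated fragments, which only the table of single fragments held. Of the 543 species tested, 304 were miRNA and 182 nuclear tRNA, and all species below means these 543. Summed by isotype and end, 48 of the 87 mitochondrial species found passed the minimum of 50 counts in 4 samples. With adjusted p below 0.05 and a log2 fold change beyond 1 either way, edgeR called 0 of them and 0 of all 543 species (0%), while 2 of the 48 were higher and 0 lower when p below 0.05 was taken before adjustment and the fold kept. At that threshold 3 higher and 35 lower were found over all 543. Without control sample 2 the mitochondrial counts were 4 higher and 0 lower, and without activated sample 3 they were 0 and 3. Over all species these fits gave 7 higher and 45 lower, and 3 and 22. DESeq2 called 0 of the 48, against 0.368% of all species. In edgeR's estimates 32 mitochondrial species were above 0 and 16 below, with a median log2 fold change of 0.19 against -0.09 over all 543 species. With library size scaling 28 were above 0 and 20 below. Leaving out single samples, the split ranged from 22 above and 22 below without activated sample 2 (median 0.01) to 39 and 6 without control sample 3 (median 0.33). Without control sample 4 the median was 0.04 against 0.02 over all species. Every activated RPM was above every control RPM for 1 mitochondrial species (1.29% of all species) and below for 1 (1.29%). By end, 10 of 11 species of the 5′ end class were above 0 with a median of 0.56, 4 of 11 of the CCA end class with a median of -0.36, 5 of 5 of the 3′ end class with 0.23, and 13 of 21 without a suffix with 0.09. In nuclear tRNA every class was mostly below 0: 1 of 35 species was above 0 in the 5′ end class (median -0.60), 8 of 53 in the CCA end class (-0.19), 3 of 21 in the 3′ end class (-0.21) and 7 of 73 without a suffix (-0.31). Of heavy-strand-coded species 24 of 33 were above 0 (median 0.21), and of light-strand-coded species 8 of 15 (median 0.03).

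The 3 species with the highest estimates were Asp-GTC from the 5′ end, Lys-TTT from the 3′ end and Asp-GTC with no suffix. Asp-GTC without a suffix had 7.78, 13.3, 17.8 and 10.3 RPM in activated and 4.35, 5.75, 7.53 and 4.67 RPM in control samples, the 1 of the 48 tested species in which all activated samples were higher. Its log2 fold change was 1.22 ± 0.39 (SE; adjusted p = 0.513 by edgeR), DESeq2's adjusted p was 0.119, and the RPM ratio was 1.74 within set 1 and 2.62 within set 2. The 5′ end of Asp-GTC had 3.62, 11.7, 11.3 and 7.23 RPM and 2.09, 5.92, 2.15 and 3.69 RPM, with a log2 fold change of 1.37 ± 0.51 (SE; adjusted p = 0.513 by edgeR), and its RPM ratio was 1.13 within set 1 and 5.41 within set 2. Most of it was the 41 nt fragment printed above, with 3.09, 9.43, 9.55 and 6.38 RPM in activated and 1.69, 5.06, 1.94 and 2.93 RPM in control samples. Activated sample 1 lay within the control range for both. For Lys-TTT from the 3′ end the values were 2.35, 9.78, 14.98 and 3.19 RPM and 4.35, 1.43, 5.81 and 1.32 RPM, with a log2 fold change of 1.36 ± 0.75 (SE; adjusted p = 0.608 by edgeR) and the high values in activated samples 2 and 3.

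The 3 lowest estimates were all of the CCA end class. Glu-TTC had 22.3, 15.7, 22.0 and 13.2 RPM in activated and 24.1, 32.0, 59.7 and 28.0 RPM in control samples, the 1 of the 48 tested species in which all activated samples were lower. Its log2 fold change was -0.94 ± 0.37 (SE; adjusted p = 0.513 by edgeR), and control sample 3 was the highest. Met-CAT had 3.76, 2.86, 5.83 and 2.23 RPM and 2.58, 5.92, 13.1 and 10.4 RPM, with a log2 fold change of -1.04 ± 0.54 (SE; adjusted p = 0.600 by edgeR), and control sample 1 lay among the activated samples. Phe-GAA had 3.15, 2.57, 8.47 and 4.36 RPM and 6.84, 6.01, 18.9 and 3.48 RPM, with a log2 fold change of -0.85 ± 0.62 (SE; adjusted p = 0.665 by edgeR), and its groups overlapped. Without control sample 3, the highest of them, the estimate of Phe-GAA was -0.08, that of Glu-TTC -0.53 and that of Met-CAT -0.66. For the species that held most reads, the estimates were 0.06 for His-GTG CCA (standard error 0.38), 0.69 for Met-CAT 5′ (standard error 0.37) and 0.50 for Thr-TGT CCA (standard error 0.58), with edgeR adjusted p of 0.940, 0.608 and 0.699. Those of Ser-GCT 5′, Ile-GAT with no suffix, Ser-TGA 5′, Lys-TTT CCA and Arg-TCG 5′ were 0.25, 0.37, 0.21, 0.82 and 1.12. The estimate of His-GTG CCA was -0.12 without control sample 4, -0.02 without control sample 2 and -0.22 without activated sample 3. That of Ser-TGA 5′ was -0.02 without control sample 4 and -0.11 without activated sample 2.

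**Figure D5:**
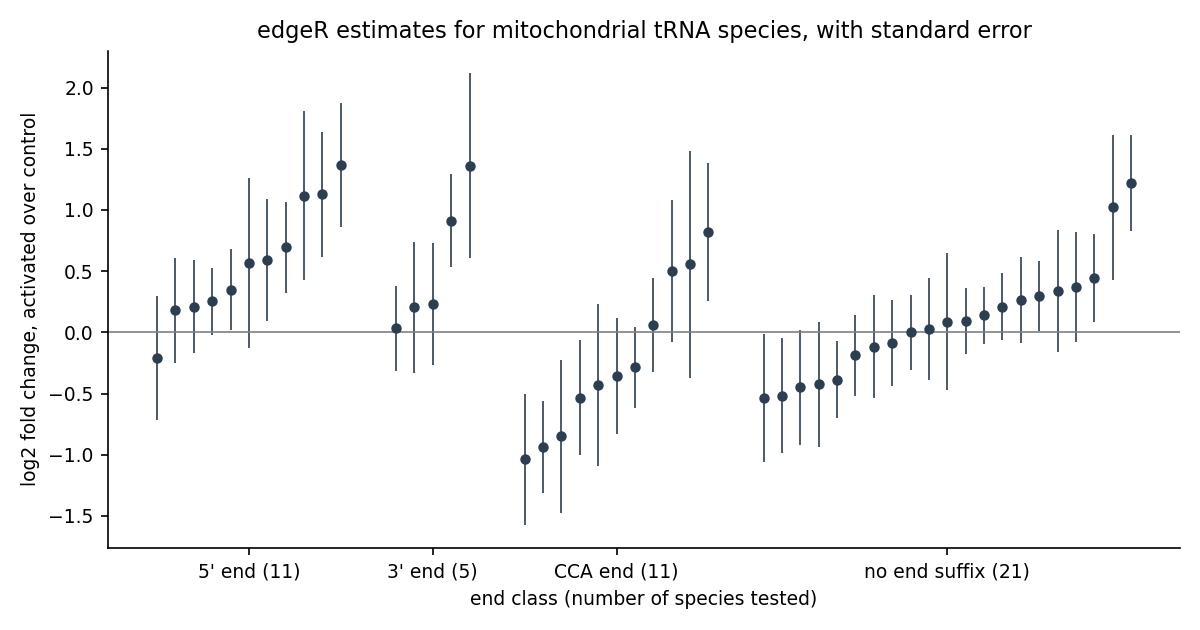
Log2 fold change of activated over control from edgeR, with a standard error derived from its F value, for the 48 mitochondrial tRNA species tested. Species are grouped by end class and ordered by value. Of the 11 species of the 5′ end class 10 lie above 0, and of the 11 of the CCA end class 4 do.

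Split further by length, 220 mitochondrial combinations of species and length were tested. They were among 2541 in all, of which 1218 were nuclear tRNA. Here edgeR called 0 of them and 0 of all 2541 (0%), while 3 of the 220 were higher and 0 lower at p below 0.05 before adjustment with that fold, beside 6 higher and 110 lower over all 2541. These mitochondrial counts were 18 and 0 without activated sample 1, 0 and 6 without activated sample 3, and 1 and 2 without control sample 4. Over all combinations the same fits gave 23 and 70, 8 and 80, and 32 and 78. DESeq2 called 0 of the 220 against 0.197% of all. Of the 220, 193 were above 0 and 27 below, with a median log2 fold change of 0.36 against -0.02 over all 2541. Library size scaling moved the median of all 2541 to -0.13 and that of the mitochondrial ones to 0.25. Without single samples the mitochondrial median ranged from 0.22 (activated sample 3 left out) to 0.56 (activated sample 1 left out). In 6 of them every activated sample was above every control sample (0.59% of all), and in 0 below (2.24%). These 6 were Glu-TTC at 33 nt, His-GTG at 24, 41 and 42 nt, Ile-GAT at 24 nt and Met-CAT at 37 nt, all without an end suffix. Met-CAT at 37 nt had 7.58, 7.83, 8.67 and 7.33 RPM in activated and 4.83, 4.45, 4.95 and 4.88 RPM in control samples, and its log2 fold change was 0.83 ± 0.23 (SE; adjusted p = 0.741 by edgeR). DESeq2's adjusted p was 0.0618. Met-CAT at 37 nt was picked after its values were seen. Lengths of 1 species share their source and are not independent of each other.

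Single fragments gave the same count of calls. Of the 8697 fragments, 308 passed the count minimum, and they held between 92.0% and 94.7% of mitochondrial tRNA reads. By edgeR 0 of the 308 were called, against 0.505% of all 12077 fragments tested, while 3 were higher and 2 lower at p below 0.05 before adjustment with that fold, beside 353 higher and 403 lower over all 12077. Without activated sample 3 these mitochondrial counts were 3 and 5, and without control sample 3 they were 4 and 0. Over all fragments the same fits gave 173 higher and 288 lower, and 321 and 227. The calls over all fragments were themselves 61 in number and went to 0 without activated sample 1, 3 or 4 or control sample 2, 3 or 4, where mitochondrial calls were 0 as well. DESeq2 called 0 of the 308, against 1.99% of all. Of the 308, 237 were above 0 and 71 below, with a median of 0.20 against 0.01 over all fragments. Every activated sample was above every control sample for 8 fragments (2.52% of all) and below for 0 (1.47%), and 6 of the 8 were His-GTG fragments of 27 to 43 nt. The most common of those, at 36 nt and also picked after its values were seen, had 11.1, 12.1, 11.0 and 16.05 RPM in activated and 9.18, 9.77, 7.42 and 5.99 RPM in control samples.

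Mitochondrial and nuclear tRNAs of the same amino acid and anticodon are separate molecules. Nuclear reads were counted for an anticodon only where every annotated name held that anticodon. Fragments whose names held more than 1 anticodon were left out of these values. Over all ends, nuclear Glu-TTC had 3853, 3150.0, 2797 and 3796 RPM in activated and 5129.8, 4322, 5388 and 2666 RPM in control samples, a ratio of 0.777 (1.09 and 0.565 within the sets). Mitochondrial Glu-TTC over all ends had 139, 129.7, 146 and 133 RPM and 121, 161, 157 and 96.4 RPM, a ratio of 1.02 (1.06 and 0.990 within the sets), which was 0.935 without control sample 4 and 0.992 without control sample 1. The groups overlapped for both. Over all ends the ratio of nuclear Ser-TGA was 0.760 (1.20 and 0.517 within the sets), beside 1.12 for mitochondrial Ser-TGA. That of nuclear Asp-GTC was 0.877 (1.104 and 0.729 within the sets) at a mean of 14047 RPM, beside 2.25 (1.42 and 3.27 within the sets) for mitochondrial Asp-GTC at 15.1 RPM. In each nuclear namesake the ratio over all ends was thus above 1 within set 1 and below 1 within set 2.

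Among the nuclear reads so counted, the 5′ ends were a small part and had ratios below 1 in both sets. Nuclear 5′ fragments shared between anticodons are not in these values. Nuclear Glu-TTC from the 5′ end had 188, 178, 135 and 109 RPM in activated and 463, 368, 511 and 186 RPM in control samples, a ratio of 0.399 (0.534 and 0.321 within the sets), and activated sample 1 lay above control sample 4. The 5′ end of mitochondrial Glu-TTC had a mean of 1.80 RPM and a ratio of 1.03 (0.581 and 2.01 within the sets), with 0.709 to 1.22 without each sample in turn. Nuclear Ser-TGA from the 5′ end had 41.6, 25.1, 27.0 and 26.6 RPM in activated and 52.9, 45.02, 109 and 43.5 RPM in control samples, a ratio of 0.481 (0.770 and 0.323 within the sets). The mitochondrial Ser-TGA 5′ end had 228, 374, 189.5 and 169.5 RPM and 225, 228, 277 and 115 RPM, a ratio of 1.14 (1.16 and 1.12 within the sets), with groups that overlapped. Without control sample 4 it was 0.986 and without activated sample 2 it was 0.926. Nuclear Asp-GTC from the 5′ end had 129, 112, 81.7 and 81.0 RPM and 144, 164, 302 and 132 RPM, a ratio of 0.544 (0.708 and 0.435 within the sets). The mitochondrial Asp-GTC 5′ end had a ratio of 2.44 (1.13 and 5.41 within the sets) at a mean of 5.96 RPM. The differences between nuclear and mitochondrial ratios were not tested.

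Against the other mitochondrial RNA of the libraries, mitochondrial tRNA gave 0.974, 0.373, 0.420 and 1.27 reads per read of 12S and 16S rRNA in activated and 0.379, 1.09, 0.352 and 0.719 in control samples. The set 1 libraries were all above the set 2 libraries in this ratio. Fragments of 12S rRNA (mt-Rnr1) had 1829, 18983, 16969 and 1459 RPM in activated and 12135, 1687, 11014 and 1236 RPM in control samples, and those of 16S rRNA (mt-Rnr2) 18715, 64477, 59783 and 16503 RPM and 59002, 18893, 64104 and 21200.1 RPM.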

How the data were processed

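Small RNA from mature sperm of 4 activated and 4 control mice was sequenced. The authors trimmed the reads, kept lengths of 15 to 45 nt with duplicates left in, matched them without mismatches to mm10 and to small RNA sequences with SPORTS, and deposited counts, the raw reads of each distinct fragment with its annotation. Bowtie and mm10 are named in the submitters' processing notes. The deposited summary files were not used. PCR duplicates are not independent molecules, so depth gives counting error only.

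Counts were summed by isotype, end suffix and length and divided by the sample total. Fragments were placed by exact match in the mitochondrial tRNA genes of GENCODE M21 (mm10) with CCA added, and the anticodon by its stem. Single totals were compared by the exact two-sided permutation test on the difference in means (70 assignments). Species, species by length and fragments were fitted over the whole tables with edgeR 4.0.16 in R 4.3.3 (quasi-likelihood test, TMM, at least 50 counts in at least 4 samples, Benjamini-Hochberg adjustment over the table) and with DESeq2 1.42.0 and apeglm 1.24.0. Both were run on simulated counts with large changes, the same dispersion for every row and no library sets. Such counts do not show how many smaller changes would be called in these libraries. The standard error of an edgeR estimate was derived as the absolute log2 fold change over the square root of the test's F value. Python 3.11.15, numpy 2.4.6, pandas 2.3.3 and matplotlib 3.10.9 did the rest. Named were the 8 isotypes of highest mean RPM, Glu-TTC, Ser-TGA and Asp-GTC beside their nuclear namesakes, the leading fragment of each end class, every call (0 were made), and the 3 species with the highest and the 3 with the lowest edgeR log2 fold change. Alternatives were other denominators and scalings, other count and length minimums, genome-matching reads, a replicate block, the library set as covariate and leaving out each sample. Members and lists were chosen with earlier results of these data known. The labels number the libraries and name no animals.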

Additional observations from a re-analysis of the deposited data

Results flagged for a closer look

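In a group of 4 samples, 1 sample stood far from the other 3 in 5 of 58 groups examined (7 totals and 22 isotypes, activated and control), where chance alone gives about 1 in 20. Activated sample 2 was highest for fragments of the 5′ end class, at 10374 RPM, and for Met-CAT, which makes up most of that class, at 9344 RPM. Control sample 3 was highest among control samples for Gly-TCC, at 208 RPM, and for Leu-TAA, at 80.8 RPM. Activated sample 3 was highest among activated samples for Leu-TAA, at 45.9 RPM. All 3 of these samples belonged to library set 2, and the part of the set in these values was not tested.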

How the results depend on the processing

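Of the 7 totals, those for mitochondrial tRNA, nuclear tRNA, their ratio, the 5′ end and fragments without a suffix kept their direction in every alternative run. The CCA end and 3′ end classes, whose ratios were near 1, did not. With genome-matching reads as denominator the CCA end stood at 0.994 and the 3′ end at 0.994 of control, with TMM-scaled library sizes at 0.998 and 0.989, with genome-matching reads only the CCA end at 0.992, within library set 2 at 0.997, and within set 1 the 3′ end at 0.987. The within-set values, and the ratios of isotypes and single ends without each sample, were added after seeing the data.

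The exact permutation p reached 0.0286 for the mitochondrial to nuclear ratio with genome-matching reads only (1.84 times control) and with fragments of at least 18 nt (1.53), and for fragments without a suffix with genome-matching reads only (1.18). It also did so where leaving out 1 sample removed the overlap of the groups, which fixes it: the ratio without activated sample 1 (1.70), the 5′ end without control sample 2 (1.96) and nuclear tRNA without control sample 4 (0.685). Without the leading fragment, the 40 nt His-GTG fragment, mitochondrial tRNA stood at 1.31 (p = 0.171), the ratio at 1.70 (p = 0.0571) and the CCA end at 1.25 (p = 0.514) of control by the exact test. Leaving out each sample in turn, the ratio of activated to control ranged over 1.05 to 1.25 for mitochondrial tRNA, 0.685 to 0.838 for nuclear tRNA, 1.35 to 1.70 for the mitochondrial to nuclear ratio, 1.35 to 1.96 for the 5′ end, 0.889 to 1.17 for the 3′ end, 0.889 to 1.19 for the CCA end and 1.01 to 1.12 without a suffix. The cause of these shifts was not tested.

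Calls of mitochondrial tRNA by edgeR or DESeq2 were 0 in the alternatives run, with 1 exception: with a minimum of 1 count in 4 samples, edgeR called 2 of 3062 mitochondrial fragments lower, beside 1743 higher and 1057 lower of all 387985. They are named here after their values were seen. A 19 nt fragment of Val-TAC had 9, 2, 6 and 0 reads in activated and 3, 13, 10 and 236 in control samples, nearly all of them in control sample 4, and a 41 nt fragment of Glu-TTC 0, 3, 0 and 0 and 16, 15, 19 and 11. Among named species, the log2 fold change of His-GTG CCA was -0.0053 with library size scaling and ranged over -0.22 to 0.29 without single samples, and that of Ser-TGA 5′ over -0.11 to 0.43.

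Between samples with the same replicate number r was -0.53, -0.40, 0.49 and 0.38, and the labels give no pairing. With the replicate block edgeR called 0 mitochondrial species, 0 by length and 0 fragments (3, 4 and 3 were higher and 0, 0 and 3 lower at p below 0.05 before adjustment, beside 7 higher and 11 lower of all species, 10 higher and 41 lower by length and 259 higher and 197 lower of all fragments), and the sign-flip test of the paired differences gave p = 0.125 for the 5′ end, the smallest 4 pairs allow (exact), and 0.250 for the ratio (1.53). Of 4 activated samples, 1 correlated best with the control sample of its own number.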
